A study of Mus musculus with 3 samples.

Results

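The genes of the leukaemia inhibitory factor (LIF) receptor and STAT3 pathway were followed in mouse ES (embryonic stem) cells, which are pluripotent, over 2 days of Gata6 overexpression. The 9 genes are Lifr, Il6st, Jak1, Jak2, Tyk2, Stat3, Socs3, Pim1 and Pim3. They were chosen by name, and their members are all 26 probe sets that the platform annotation gives to one of these genes alone, out of 34945 such probe sets for 18193 genes in the series. Each of the 26 lay above the floor of 54.0, the signal below which values were not told apart, on all 3 arrays.

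The series holds 1 Affymetrix array each of day 0 (labelled the control), day 1 and day 2 of Gata6 overexpression. Gata6 encodes a transcription factor that drives the primitive endoderm, an early lineage that feeds into the yolk sac. The cells had been engineered so that this factor is overexpressed in answer to dex, as the labels write it. The sources used here do not give whether the day 0 cells carried the same construct, which promoter drove it, whether the line was a single clone, or whether the medium held LIF on each day. With no replicates there is no test between days. Day, culture, Gata6 itself and any exposure to dex cannot be told apart.

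LIF holds mouse ES cells in self-renewal. It binds Lifr, which pairs with the shared receptor chain gp130, the product of Il6st. JAK kinases bound to the receptor chains phosphorylate them and then the transcription factor STAT3, which moves to the nucleus and switches on targets. Among these targets are Socs3, whose product blocks the receptor complex in a feedback loop, and the serine/threonine kinases Pim1 and Pim3, which favour survival and self-renewal.

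The overexpressed gene was checked first. One Gata6 probe set read 110 on day 0, 5574 on day 1 and 6070 on day 2. Of 9 ES cell markers, 8 were at least 2-fold lower on day 1 and 8 on day 2. The summed signal of all 9 was 129012, 57535 and 47796 on the 3 days. Most of the sum on day 1 and day 2 came from Dppa5a, the marker that stayed within 2-fold, at 40759, 37051 and 36734. All 10 primitive endoderm markers were at least 2-fold higher on both later days, and their summed signal was 5159, 74674 and 130785. Of 10 markers of fibroblasts, the usual feeder cells of such cultures, 6 were at the floor on every array (Col1a1, Col3a1, Postn, Fap, Dcn and Lum), and the sum was 938, 649 and 627. In all sums of this paragraph a value under the floor counted as 54.0. Part of the fibroblast and leukocyte sums is therefore the floor itself and not measured signal. Of the others, Thy1 was lower on both days (421, 75.4 and under the floor, at least 7.80-fold on day 2), Twist1 was higher on day 2 (under the floor, 88.9 and 113, at least 2.08-fold), and Col1a2 and Pdgfrb did not pass 2-fold. Of 4 leukocyte markers on the array, Ptprc and Cd3e were at the floor on every array, and the sum was 648, 498 and 399. Cd68 read 486, 336 and 205, 2.37-fold lower on day 2, and Lyz2 was under the floor on day 0 and day 1 and read 85.4 on day 2. The part of these shifts in the results below was not tested.

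The receptor chains, the JAK kinases, Stat3 and Socs3 stayed within 2-fold of day 0 on their brightest probe sets, whereas the Pim kinases were lower. Taking the brightest probe set of each gene, 0 of the 9 genes were at least 2-fold higher on day 1 and 2 were at least 2-fold lower, Pim1 by 2.25-fold and Pim3 by 2.39-fold. On day 2 the counts were again 0 and 2, with Pim1 3.57-fold and Pim3 2.35-fold lower than on day 0. The background over all genes was 6.00% higher and 6.58% lower by 2-fold or more on day 1, and 11.0% higher and 10.1% lower on day 2. The median log2 ratio of the 9 genes was -0.37 on day 1 and -0.11 on day 2, beside -0.04 and -0.05 over the 13602 and 13865 genes compared. In RNA from a whole culture, fewer cells that carry a transcript and less of it per cell cannot be told apart. The day 1 and day 2 ratios share the day 0 array.

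**Figure D1:**
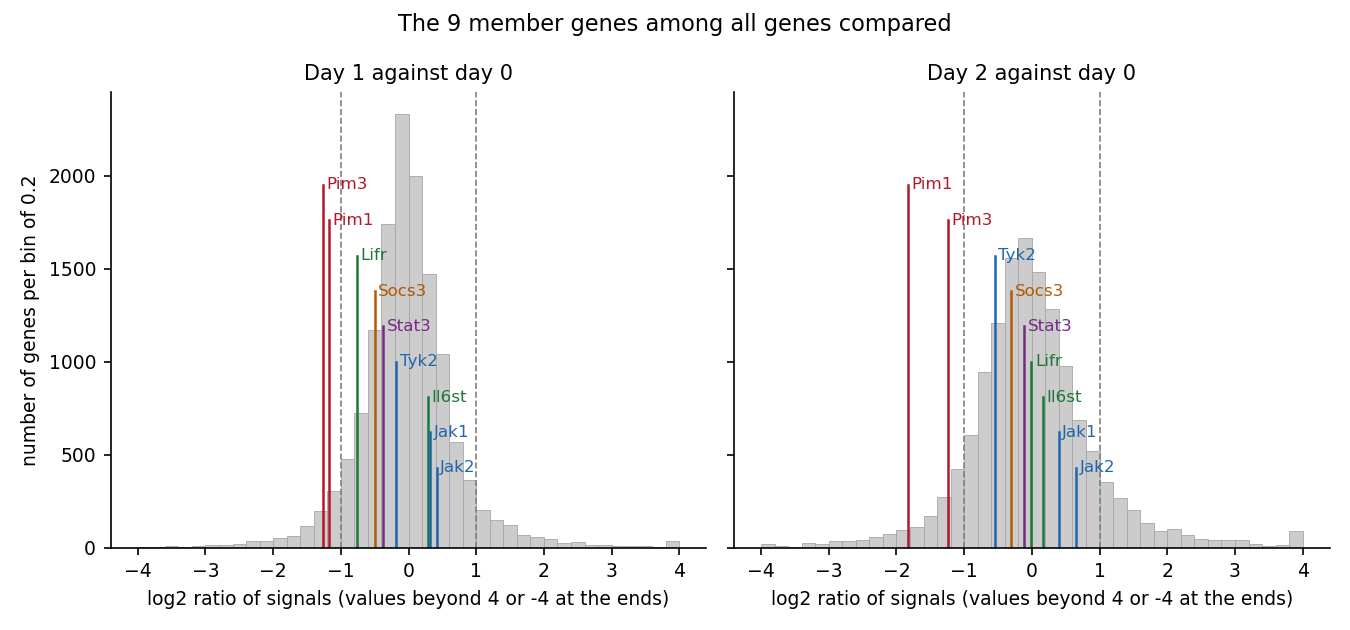
Histograms of the log2 ratio of signals over all genes compared (grey, number of genes per bin of 0.2) for day 1 and day 2 against day 0, with the 9 pathway genes as coloured lines whose height has no meaning. Dashed lines mark a 2-fold difference, and only Pim1 and Pim3 lie beyond them, both on the lower side.

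The size of the measurement error was taken from genes with several probe sets, by how far the log2 ratios of their 2 brightest probe sets lay apart (the SD of that gap over the square root of 2, which is the SD of 1 probe set). By the signal of the dimmer of the 2, this SD was 0.53 under 200, 0.33 up to 1000, 0.19 up to 5000 and 0.13 beyond that. Each probe set was then given the SD at its mean signal over the 3 arrays. The SD covers measurement within these arrays and leaves out the spread between cultures.

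The receptor chains were read first. Lifr, the chain that binds LIF, is covered by 3 probe sets. The brightest, 1454984_at, read 2103 on day 0, 1238 on day 1 and 2095 on day 2. It was therefore 1.70-fold lower on day 1, a log2 ratio of -0.76 where the SD at that signal is 0.19, and level with day 0 on day 2 (log2 ratio -0.01). The dimmer probe sets gave another picture: 1425107_a_at read 178, 195 and 402, and 1450207_at read 143, 110.3 and 270. Both were highest on day 2, at 2.26-fold and 1.89-fold the day 0 signal. All 3 probe sets were higher on day 2 than on day 1, with log2 ratios from 0.76 to 1.29, so they shared a direction for that step only. Averaged over its probe sets, the log2 ratio of Lifr was -0.33 on day 1 and 0.70 on day 2.

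Il6st encodes gp130, the signal-transducing chain that Lifr shares with the receptors of interleukin 6 and its relatives. Its brightest probe set, 1452843_at, read 1229, 1503 and 1376, and stayed within 1.22-fold of day 0. Probe set 1437303_at read 468, 955 and 1108, so it was 2.04-fold higher on day 1 and 2.37-fold higher on day 2. The other two, 1460295_s_at at 685, 824 and 870.4 and 1421239_at at 458, 442 and 535, moved little. On day 2 all 4 Il6st probe sets lay above day 0, with log2 ratios from 0.16 to 1.24, and on day 1 it was 3 of 4. The receptor chain common to the cytokine family was thus not lower on day 2 on any of its probe sets, but only 1 of the 4 passed 2-fold.

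The JAK kinases, which carry the signal from the receptor chains to STAT3, differed from each other in direction. Jak1 is the kinase on which gp130 signalling mainly relies. Its brightest probe set, 1433805_at, read 1234, 1543 and 1623, and the others read 513, 526 and 594 (1433803_at) and 267, 354 and 392 (1433804_at). All 3 ran in the same order, lowest on day 0 and highest on day 2, and the brightest was 1.25-fold higher on day 1 and 1.32-fold higher on day 2. Each Jak1 ratio was under 2-fold, with log2 ratios on day 2 from 0.21 to 0.56.

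Jak2, a kinase that serves many cytokine receptors, read 207, 277 and 326 on its brightest probe set, 1421066_at, which is 1.58-fold higher on day 2 than on day 0. Its other probe set, 1421065_at, read 65.9, 138 and 230.3, which is 2.10-fold higher on day 1 and 3.49-fold higher on day 2. Its day 0 signal was under 70.3, the 95th percentile of 78 probe sets for odorant and vomeronasal receptors, genes that ES cells are not known to use, so the size of that ratio rests on a value in the background range. The direction was the same on both Jak2 probe sets at each step. As a mean over its probe sets, Jak2 had a log2 ratio of 1.23 on day 2, past 2-fold.

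Tyk2, the kinase partner of interferon and interleukin 12 receptors among others, went the other way on its brightest probe set. Probe set 1417306_at read 761, 671 and 521, a log2 ratio of -0.18 on day 1 and -0.55 on day 2, where the SD at that signal is 0.33. The dim probe set 1432576_at read 82.5, 57.7 and 130.5, with its day 1 signal in the background range, and had the opposite sign on day 2 (log2 ratio 0.66). The probe sets of Tyk2 therefore settle no direction for day 2.

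**Figure D2:**
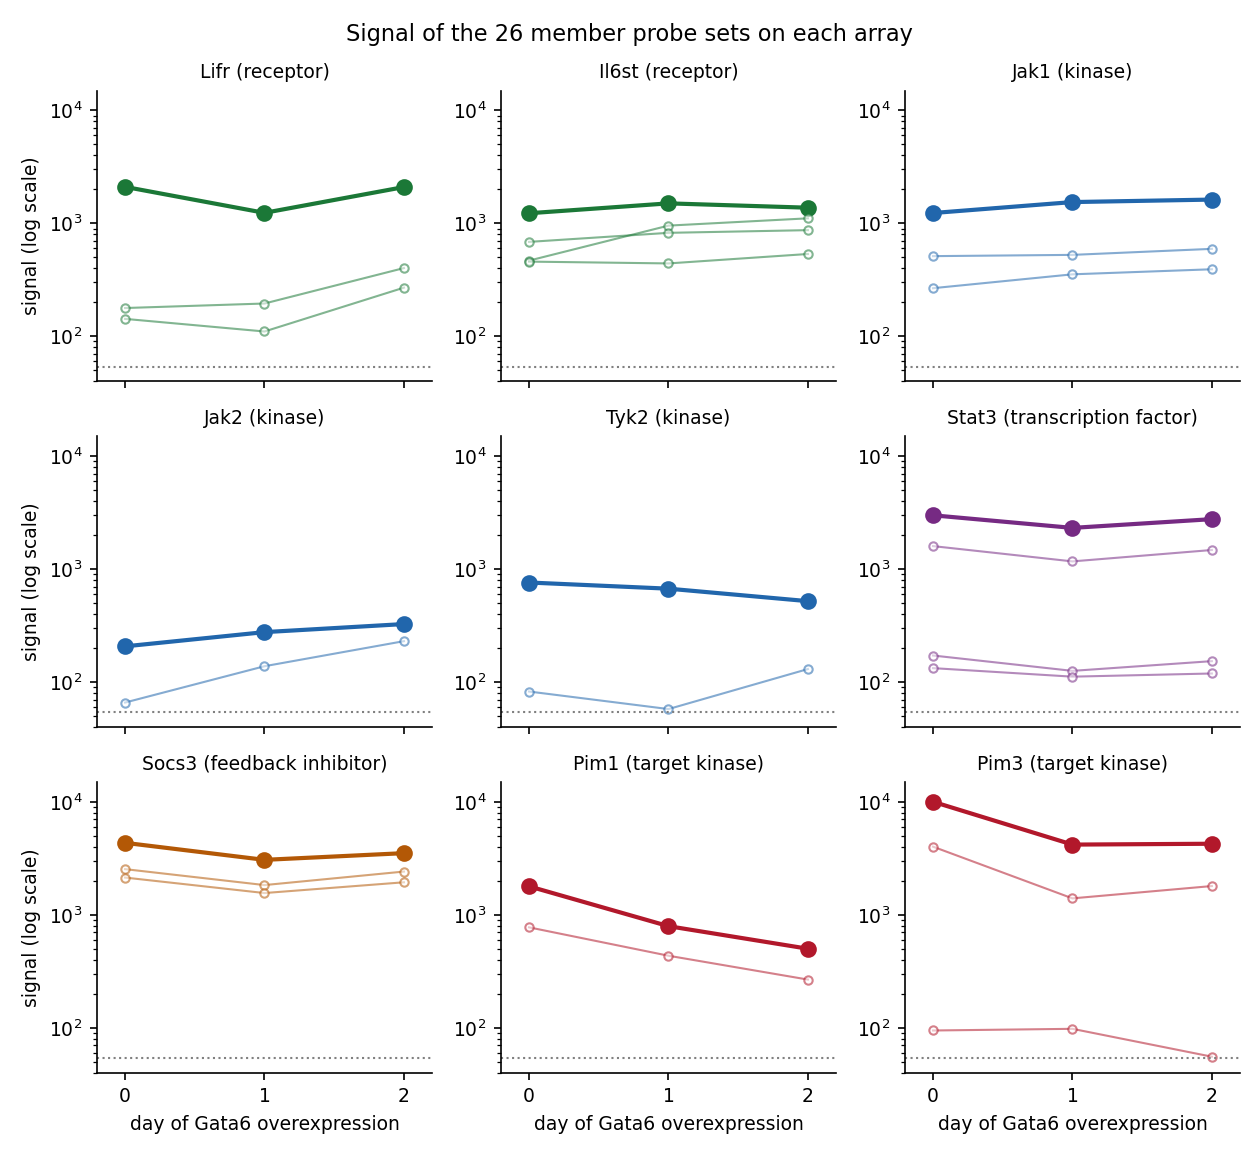
Signal (log scale) of each of the 26 probe sets on the arrays of day 0, day 1 and day 2, one panel per gene; filled symbols and thick lines mark the brightest probe set of a gene, open symbols its other probe sets, and the dotted line the floor of 54.0. Jak1 and Jak2 lines climb from day 0 to day 2, Stat3 and Socs3 lines dip on day 1, and Pim1 lines descend throughout.

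Stat3, the transcription factor of the pathway, showed the same shallow dip on every probe set. Its brightest, 1426587_a_at, read 2997, 2318 and 2770.5, and 1460700_at read 1599, 1171 and 1477. The dimmer ones read 172, 126 and 153 (1459961_a_at) and 133, 112 and 119 (1424272_at). On all 4 the day 0 signal was the highest and the day 1 signal the lowest. The log2 ratios ran from -0.45 to -0.25 on day 1 and from -0.17 to -0.11 on day 2. The day 1 value of the brightest, -0.37, was 1.95 times the SD at its signal, and the day 2 value, -0.11, was 0.596 times it. These are transcript levels, and the phosphorylation of STAT3, by which the pathway acts, was not measured.

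Socs3, the feedback inhibitor that STAT3 induces, ran in parallel with Stat3. Its probe sets read 4348, 3073 and 3523 (1455899_x_at), 2543, 1838 and 2420.5 (1456212_x_at) and 2142, 1562 and 1945 (1416576_at). All 3 were highest on day 0 and lowest on day 1. On day 1 the log2 ratios were close together, from -0.50 to -0.46, and on day 2 they were -0.30, -0.07 and -0.14. The brightest was 1.41-fold lower on day 1, 2.64 times the SD at its signal, and 1.23-fold lower on day 2. Among all 19764 probe sets of 1 gene above the floor on every array, 12.3% had this order of days (day 0 highest, day 1 lowest), and it was found in 10 of the 26 pathway probe sets, among them all 7 of Stat3 and Socs3. The order from day 0 lowest to day 2 highest was found in 24.6% of all and in 8 of the 26, among them all 5 of Jak1 and Jak2. Probe sets of 1 gene read the same RNA and are not independent.

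**Figure D3:**
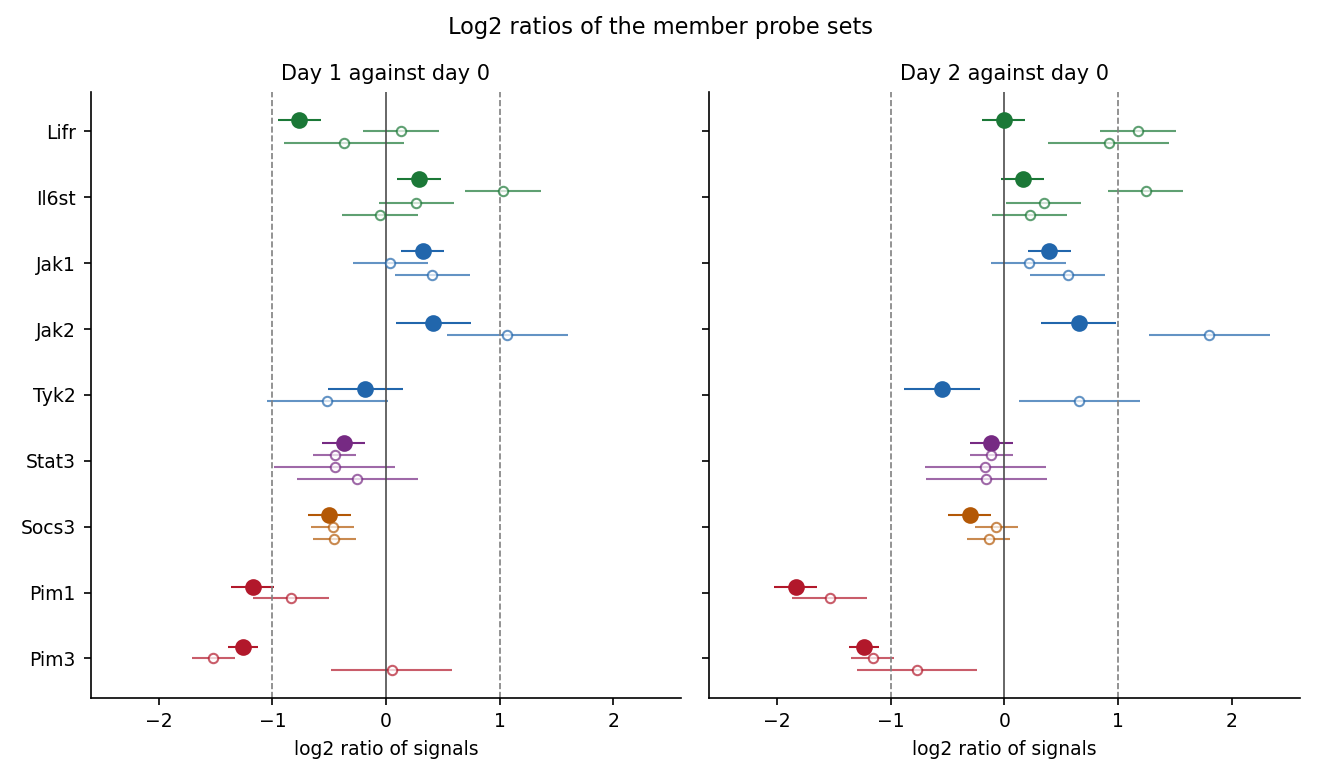
Log2 ratio of signals for each of the 26 probe sets, day 1 (left) and day 2 (right) against day 0; filled symbols mark the brightest probe set of a gene, bars 1 SD of log2 ratios between probe sets of one gene at that signal, and dashed lines a 2-fold difference. The probe sets of Stat3 and of Socs3 cluster tightly below 0 on day 1, those of Pim1 lie lowest on day 2, and single probe sets of Il6st, Jak2 and Lifr pass 2-fold upward.

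The Pim kinases were the lowest of the set. Pim1 read 1791 on day 0, 795 on day 1 and 502 on day 2 on its brightest probe set, 1435458_at, and 776, 435 and 268 on 1423006_at. Both probe sets were lower at each step. The ratios against day 0 were 2.25-fold and 1.78-fold lower on day 1 and 3.57-fold and 2.90-fold lower on day 2, so on day 1 only the brighter one passed 2-fold. The day 2 log2 ratio of -1.84 was 9.67 times the SD of 0.19 at the mean signal of that brightest probe set. That mean lies just above 1000, while its day 1 and day 2 signals lie where the SD was 0.33, so the multiple depends on this choice. Of the genes compared, 2.90% had a lower ratio.

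Pim3 read 10043, 4194 and 4268 on its brightest probe set, 1437100_x_at, and 4020.2, 1402 and 1802 on 1451069_at. Both were more than 2-fold lower on day 1 and day 2, by 2.39-fold and 2.87-fold on day 1 and by 2.35-fold and 2.23-fold on day 2. Unlike Pim1, neither was lower on day 2 than on day 1. The remaining probe set, 1438956_x_at, was dim at 94.8, 98.1 and 55.6, with its day 2 signal in the background range, and was level with day 0 on day 1 (log2 ratio 0.05). As a mean over all 3, the day 1 log2 ratio was -0.91, under 2-fold. The suffix _x_at marks probe sets with probes that can match other transcripts. The probe sets of Pim3 and Socs3 without it, 1451069_at and 1416576_at, had the same sign on both days as the brightest.

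Socs3, Pim1 and Pim3 are all known as targets of STAT3, and their transcripts took different courses here, so their promoter windows are shown. Each window runs from 250 bases before to 50 after a transcription start of RefSeq, build GRCm38.p6, and is written 5′ to 3′ on the gene's strand. Windows were found for all 9 genes, 11 in all. Capitals mark a match to TTCNNNGAA, the palindromic element that STAT dimers bind, or to its variant TTCNNNTAA, each searched on both strands. The windows lie at chr11:117969317-117969616 (Socs3, minus strand), chr17:29490535-29490834 (Pim1, plus strand) and chr15:88861944-88862243 (Pim3, plus strand). The Socs3 start used lies 970 bases inside the gene record of the same RefSeq annotation, so the start of that record was not searched. Pim1 has a second window, 2300 bases inside its record, with 0 matches.
Socs3: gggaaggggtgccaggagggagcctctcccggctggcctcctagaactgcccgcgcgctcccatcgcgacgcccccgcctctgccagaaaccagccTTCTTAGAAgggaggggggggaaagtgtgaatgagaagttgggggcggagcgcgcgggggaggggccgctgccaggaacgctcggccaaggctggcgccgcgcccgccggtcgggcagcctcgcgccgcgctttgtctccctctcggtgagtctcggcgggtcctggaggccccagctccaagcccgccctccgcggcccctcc
Pim1: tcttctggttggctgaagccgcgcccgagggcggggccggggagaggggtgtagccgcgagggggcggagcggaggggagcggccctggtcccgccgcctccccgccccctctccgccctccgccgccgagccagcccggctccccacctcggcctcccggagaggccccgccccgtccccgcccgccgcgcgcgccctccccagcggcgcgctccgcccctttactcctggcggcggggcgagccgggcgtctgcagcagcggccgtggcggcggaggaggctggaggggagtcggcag
Pim3: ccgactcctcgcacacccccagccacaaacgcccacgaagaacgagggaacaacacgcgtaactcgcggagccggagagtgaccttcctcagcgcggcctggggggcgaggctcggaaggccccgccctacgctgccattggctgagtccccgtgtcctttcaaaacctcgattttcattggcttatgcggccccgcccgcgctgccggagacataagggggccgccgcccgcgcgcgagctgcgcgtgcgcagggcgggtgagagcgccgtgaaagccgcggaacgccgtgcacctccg

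The Socs3 window holds 1 match to TTCNNNGAA, TTCTTAGAA, which begins 154 bases before the start, and the windows of Pim1 and Pim3 hold none of either motif. The Il6st window holds TTACGGGAA, a match to TTCNNNTAA on the opposite strand, 120 bases before the start, and the Stat3 window holds TTCCGCTAA, a match to the same motif, 239 bases before it. The windows of Jak1, Jak2 and Tyk2 hold none. Nor do the 2 windows of Lifr, which lie 38962 and 49932 bases inside its gene record, so the start of that record was not searched. So 3 of the 9 genes had a match to either motif, beside 19.9% of the 27025 genes with a window. The median share of G and C bases was 68.3% in the windows of the 9 genes and 52.7% in all windows. The background share was not matched for this. TTCNNNGAA occurs in 8.30% and TTCNNNTAA in 10.4% of the 32851 windows. A match describes these letters only, and binding was not measured.

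The last comparison, day 2 against day 1, asked what differed within the second day. Of the 9 genes, 0 passed 2-fold in either direction on their brightest probe sets, where 5.61% and 3.67% of all 13468 genes compared were higher and lower. The median log2 ratio of the 9 was 0.07. Of the 26 probe sets, 21 read higher on day 2 than on day 1 and 5 lower, where 47.8% of all 19764 probe sets above the floor on every array read higher. Those lower were both of Pim1, the brightest of Il6st and of Tyk2, and the dim one of Pim3. Probe sets of 1 gene are not independent, so the 26 are not that many separate readings. By gene, on the brightest probe sets, Il6st, Tyk2 and Pim1 were lower and the others higher. Lifr had the highest ratio on its brightest probe set (1.69-fold higher) and Pim1 the lowest (1.58-fold lower). The dimmer probe sets of Lifr did pass 2-fold, at 2.06-fold and 2.44-fold higher, as did the dim one of Tyk2, at 2.26-fold higher. Averaged over its probe sets, Lifr had a log2 ratio of 1.03, past 2-fold.

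The wider pathway was read from 6 lists of 77 other genes, of which 69 were on the array with a probe set of their own. On day 1, 65 could be compared, with 5 of them 2-fold higher or more and 10 lower. On day 2 the counts were 7 and 12 of 66. Their median log2 ratios were -0.15 and -0.16, beside -0.04 and -0.05 over all genes compared. Over all genes, 6.00% were higher and 6.58% lower on day 1, and 11.0% and 10.1% on day 2. For day 2 against day 1 these shares were 5.61% and 3.67%. The counts of each list below stand beside the same shares. On day 2 against day 1, 4 of 64 were higher (Osm, Il6ra, Akt1 and Jun) and 4 lower (Esrrb, Tfcp2l1, Zfp57 and Sos1). All of these but the call of Jun were lost under at least 1 other setting. With the mean over probe sets, the log2 ratio was 0.66 for Akt1, 0.64 for Il6ra, -0.43 for Tfcp2l1, -0.84 for Esrrb and -0.11 for Sos1. With a higher floor, 146 or the 60th percentile of signals, Zfp57 was at -0.92, and Osm and Il6ra were at 0.

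Ligands of the gp130 receptors were dim or at the floor. Lif read 70.8, 82.1 and 117, and Il6 and the cytokine subunit gene Ebi3 were at the floor on each array. Of 5 ligand genes compared on day 1, 1 was lower and 0 higher. That was Osm, the gene of oncostatin M, which read 115 on day 0, was at the floor on day 1 and read 128 on day 2. It was at least 2.13-fold lower on day 1 and at least 2.36-fold higher on day 2 than on day 1. On day 2 against day 0, 0 of the 5 passed 2-fold. Among the other receptors, Il6ra, the interleukin 6 receptor chain, read 129, the floor and 131, at least 2.39-fold lower on day 1. Its other probe set had a log2 ratio of -0.29 on day 1. Of the other receptors compared, 1 of 3 was lower on day 1 and 0 of 4 on day 2. The floor of 146 ended the calls of Osm and Il6ra.

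Of 6 other JAK and STAT genes, 1 was lower on day 1 and 2 on day 2, and 0 were higher. Jak3, best known from lymphocytes, read 557, 207 and 218, which is 2.69-fold lower on day 1 and 2.55-fold lower on day 2. Stat6, which interleukin 4 activates, read 1049, 813 and 408, 2.57-fold lower on day 2. Stat5a and Stat5b stayed within 2-fold on their brightest probe sets. The other probe set of Stat5b had log2 ratios of 0.84 on day 1 and 1.37 on day 2, past 2-fold higher on day 2.

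Of 15 other inhibitors, 1 was higher and 1 lower on each day. Socs1 was under the floor on day 0 and read 206 on day 1 and 134 on day 2, at least 3.82-fold and at least 2.49-fold higher. Both calls were lost with the floor at 146. Socs2, an inhibitor of growth hormone signalling, read 1984, 833 and 987, which is 2.38-fold lower on day 1 and 2.01-fold lower on day 2. Its 6 probe sets had log2 ratios from -2.19 to -0.21 on day 1, and with loess scaling its day 2 value was -0.98, just short of 2-fold. The phosphatase genes Ptpn1, Ptpn2 and Ptpn6 and the 4 Pias genes, whose products restrain STAT proteins, were all within 2-fold of day 0 on their brightest probe sets. Another probe set of Pias2 was past 2-fold lower, with log2 ratios of -1.18 on day 1 and -1.16 on day 2.

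Genes of the side branches of the receptor, which lead to the ERK and PI3 kinase pathways, held higher calls and 0 lower ones: 2 of the 14 on day 1 and 4 on day 2. Over all genes, 6.00% were higher and 6.58% lower on day 1, and 11.0% and 10.1% on day 2. Pik3r1, a regulatory subunit of PI3 kinase, read 180.4, 1975 and 1290.5, which is 10.9-fold higher on day 1 and 7.15-fold higher on day 2, and its probe sets gave log2 ratios between 3.01 and 3.96 on day 1. Akt1, a kinase downstream of PI3 kinase, read 522, 936 and 2121, 4.07-fold higher on day 2, its probe sets giving log2 ratios between 0.35 and 2.02. Sos2, an exchange factor for Ras, read 137, 284 and 326, 2.08-fold and 2.39-fold higher, the first just short of 2-fold with the floor at 146 (log2 ratio 0.96). The adaptor Gab2 was under the floor on day 0 and read 139 on day 2, at least 2.57-fold higher, a call lost with the floor at 146 and on its other probe sets. The phosphatase gene Ptpn11 and the adaptor genes Shc1, Grb2 and Gab1 stayed within 2-fold on their brightest probe sets. The 3 probe sets of Ptpn11 differed in sign, with log2 ratios from -0.63 to 1.34 on day 2.

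The list of other genes known as LIF or STAT3 targets in ES cells split. On day 1, 2 of 22 were higher and 6 lower. On day 2 the counts were 2 and 9, with median log2 ratios of -0.55 on both days. The shares over all genes were 6.00% higher and 6.58% lower on day 1, and 11.0% and 10.1% on day 2. The lower targets were led by pluripotency factors, which have other inputs too and of which Nanog and Esrrb are also in the ES cell marker list: Esrrb read 7223, 1557 and 752 (9.60-fold lower on day 2), Nanog 14631, 3442 and 1841 (7.95-fold) and Gbx2 495, 86.1 and the floor (at least 9.16-fold). The zinc finger gene Zfp57 read 868, 276 and 128, 6.77-fold lower on day 2. The cyclin gene Ccnd1, read at 1424, 310 and 357, was 4.60-fold lower on day 1 and stayed past 2-fold lower on day 2.

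The NF-kappaB cofactor gene Bcl3 was 3.59-fold, Myc 3.21-fold, Tfcp2l1 3.78-fold and the Polycomb gene Eed 2.66-fold lower on day 2. The Tfcp2l1 value rests on 1 of its 3 probe sets, since the others were at the floor, and the mean over the probe sets of Eed was a log2 ratio of -0.88. Other targets stayed within 2-fold of day 0 on their brightest probe sets. Klf4 read 7216, 7641 and 9672, Klf5 15070.5, 16813 and 14701, Tbx3 3518, 4423 and 3559, and the survival gene Mcl1 10292, 8558 and 9041. Another probe set of Tbx3 passed 2-fold on day 1, with a log2 ratio of 1.04. Jun, a subunit of the AP-1 factor, read 73.5, 187 and 677, 9.21-fold higher on day 2, where its other probe set had a log2 ratio of 1.60. Its 2.54-fold higher value on day 1 was lost with the floor at 146 and on that other probe set. Pramel7 was under the floor on day 0 and read 212 on day 2, at least 3.92-fold higher, but under 2-fold with the floor at 146. Pim2, the other Pim gene, read 429, 521 and 261, within 2-fold on each comparison and in other steps than Pim1 and Pim3. Of these targets, Bcl3, Myc, Eed, Klf4, Klf5, Tbx3, Mcl1, Pramel7 and Pim2 were picked out after their values were seen.

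**Figure D4:**
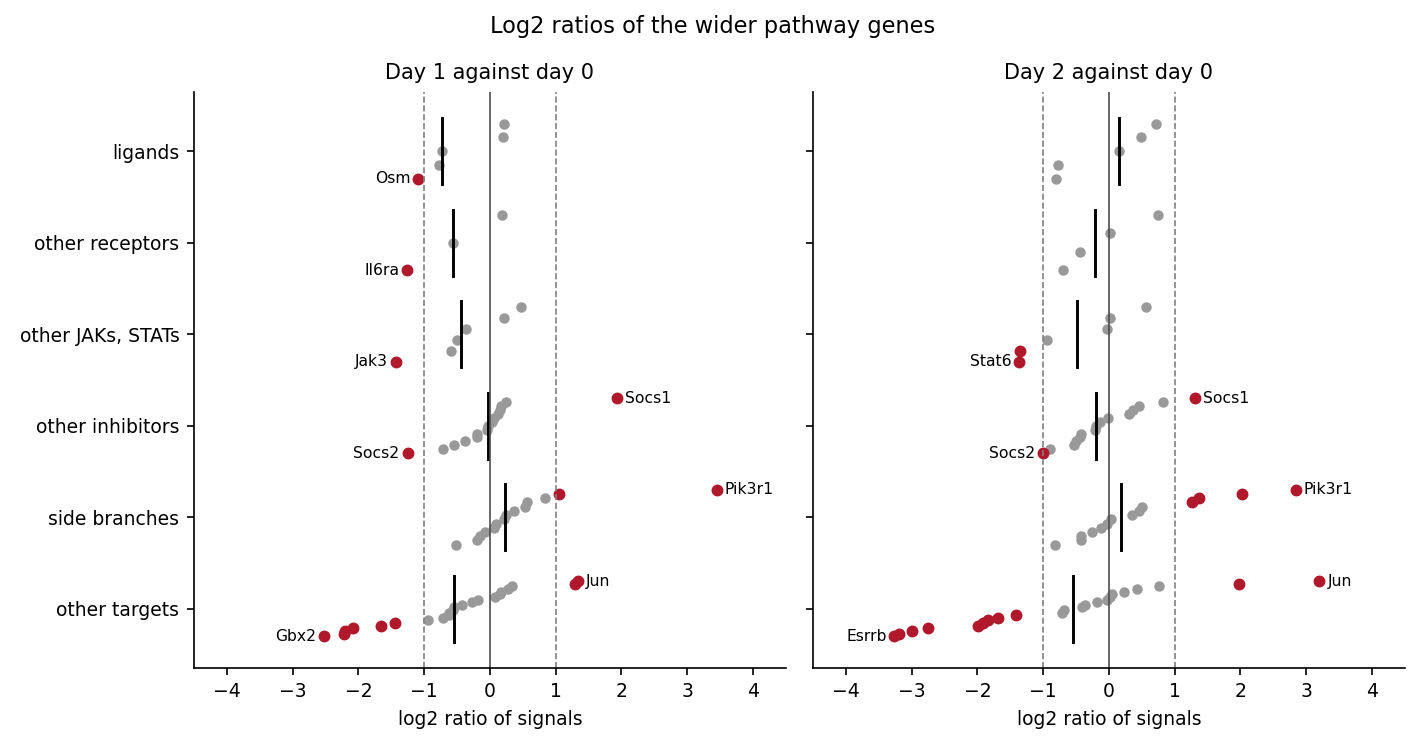
Log2 ratio of signals for the genes of the 6 wider lists, day 1 (left) and day 2 (right) against day 0; each point is a gene, with its height within a list only for spacing and floor values at the floor, red points passed 2-fold, black bars mark the list's median, dashed lines a 2-fold difference, and the outermost gene of a list is named where it passed. On day 2 the red points of the side branches lie to the right and those of the other targets mostly to the left.

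The profile of Pim1, which had the widest difference on day 2 of the 9 genes, was set beside all 10914 genes above the floor on every array by the distance between their pairs of log2 ratios (day 1 and day 2 against day 0). The nearest were Gid8 (distance 0.02), Fermt2 (0.05), Kcnk5 (0.06), Atp1b2 (0.08) and Tmem191c (0.08). Over 3 arrays many genes come close by this measure: 149 lay within 0.41, the SD between probe sets over all signals.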

How the data were processed

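Total RNA was labelled with an Affymetrix one-cycle kit, per the labels' protocols. The authors deposited 1 intensity value per probe set and array. The submitters' processing notes name MAS5, with no version. MAS5 weighs perfect-match against mismatch probes and scales each array as a whole, so a shift in total RNA is not seen. The 3 columns had median intensity values of 84.2, 81.8 and 86.4 on day 0, 1 and 2. All columns were used.

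Arrays were scaled to a common 2% trimmed mean, values under the 40th percentile (54.0) were set to that floor, and log2 was taken. Of 45101 probe sets, 64 were controls, 34945 had 1 gene, 932 several and 9160 none. Symbols were matched by gene identifier to RefSeq GRCm38.p6 for 34741 of the 34945. A gene was read from its brightest probe set and called at 2-fold with the brighter array above the floor; folds from the floor are bounds ("at least"). The number of arrays limits the precision. Of the probe sets with several genes, 0 named a member. Genes of the wider lists are named where they passed 2-fold with 1 sign over their probe sets, up to 5 per list and comparison; others given were picked after their values were seen. The members and lists were chosen with earlier results of these data known. Alternatives changed the floor, scaling, probe set and threshold. Python 3.11.15, pandas 2.3.3 and statsmodels 0.14.6 were used. Calls were tested on simulated data with changes wider than 2-fold in bright genes only. Calls near 2-fold or near the floor were not covered by it.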

Additional observations from a re-analysis of the deposited data

How the results depend on the processing

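With 1 array per day, no replicate could be left out, and no error between cultures is known. No paired analysis was possible because each day has 1 array. Of the 243 log2 ratios of the 9 genes recomputed under other settings, 211 stayed within 1 SD between probe sets of the reported value. These 211 include 27 each from the 25th percentile floor, the 60th percentile floor and the values as deposited, which could hardly move. The brightest probe set of each gene lay above these floors on every array, so its ratios were identical. The deposited trimmed means were already nearly equal, at 497.49, 497.57 and 497.72 on day 0, 1 and 2. The 32 ratios that moved further came only from the choice of probe set. They were 11 with the mean over probe sets, 2 with specific probe sets and 19 with the second brightest probe set. That last alternative was chosen after seeing the data. The ratios of Pim1 and Pim3 against day 0 kept their sign under all of the settings. Pim1 on day 1 was under 2-fold on its second brightest probe set (log2 ratio -0.83).

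With the second brightest probe set, 2, 3 and 2 of the 9 genes were higher on day 1, on day 2 and on day 2 against day 1, and 1 was lower on day 1. With the mean over probe sets, 1 was higher on day 2 (Jak2), 1 on day 2 against day 1 (Lifr), and 1 lower on day 1 (Pim1). A 3-fold threshold left 0 lower on day 1 and 1 on day 2, and a 1.5-fold threshold gave 1 higher on day 2, and 1 higher and 1 lower on day 2 against day 1.

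For the wider lists on day 1, the floor at the 60th percentile gave 1 higher, the 3-fold threshold 2 higher and 5 lower, and the 1.5-fold threshold 18 lower. On day 2 they gave 4 higher, 4 higher, and 11 higher with 20 lower. On day 2 against day 1, the counts of higher genes were 2 with that floor, 2 with the mean over probe sets, 1 at 3-fold and 11 at 1.5-fold. Those of lower genes were 2 with a pseudocount of 32, 7 with quantile normalization, 1 with the mean, 0 at 3-fold, 14 at 1.5-fold and 1 with the second brightest probe set. Sos1, lower by this step on its brightest probe set, had a log2 ratio of 0.35 on its second brightest. Of the 26 probe sets, 3 fell to the background range of odorant and vomeronasal receptor probe sets on 1 array each.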
